A study of Mus musculus with 3 samples.

Results

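The cell's defence against oxidants and metal ions was followed through 10 genes in 3 RNA libraries of mouse vestibular cells: Nfe2l2, Sod1, Sod2, Cat, Prdx1, Prdx2, Prdx5, Txn1, Mt1 and Mt2. They were taken by symbol from the deposited gene table, where each of the 10 matched 1 row of 57180. The cells were picked for looking like black balls and came from the vestibule, which holds the balance organs of the inner ear. They form a single wild-type (WT) group with no control, and the sources used here do not give strain, age or treatment. The cell type label says macrophages and the cell line field immune cells, whereas the series title speaks of melanocytes. Per the labels' protocols, 18 cells were drawn from 9 mice at 3 mice per group, and cDNA was made from polyadenylated RNA with the SMART-Seq HT kit, then amplified. How the cells were shared out among the 3 libraries is not given, and no library is tied to named animals, so each SD and p-value below reflects just the variation among these 3 libraries, which could be technical.

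Cells make superoxide and hydrogen peroxide as by-products of respiration and signalling. Superoxide dismutases turn superoxide into hydrogen peroxide, and catalase, the peroxiredoxins and the glutathione peroxidases remove the peroxide. For the peroxiredoxins and the glutathione peroxidases, thioredoxin and glutathione are the electron donors. NRF2, the product of Nfe2l2, is held in the cytoplasm and sent for destruction by KEAP1 until oxidants or electrophiles modify KEAP1, and it then binds antioxidant response elements in the promoters of many of these genes. Metallothioneins are small proteins rich in cysteine that bind zinc, copper and cadmium, and the zinc-sensing factor MTF1 drives them through metal response elements.

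The libraries held 18460546, 15086854 and 14095521 counts in replicates 1, 2 and 3. A floor of 3 counts stood at 0.163 to 0.213 CPM (counts relative to the library total), and PCR copies carry no molecular identifiers, so that floor covers counting error only. All 10 genes lay far above it: the lowest member count was 550, for Mt2 in replicate 2, and the highest was 50208, for Prdx1 in replicate 2. Mitochondrially encoded genes took 2.40%, 5.40% and 2.60% of the counts. Of 18 macrophage markers 15 stood above 1 TPM (a level scaled by gene length and then to the same total in each library), led by Lyz2, the macrophage lysozyme, at 4616 ± 1632 TPM and Ctss, a lysosomal protease, at 907 ± 294 TPM (SD, n = 3, as throughout). Cx3cr1, Itgam and Cd163 were the macrophage markers that missed 1 TPM in limma's test. Markers of other cells were also above 1 TPM: 9 of 15 for melanocytes (Dct at 250.3 ± 19.6 TPM and Mlana at 232 ± 33.8 TPM), 5 of 7 for red cells, 11 of 12 for hair cells, 11 of 12 for supporting epithelium, 9 of 10 for fibroblasts, 10 of 12 for dark cells and stria, 5 of 10 for neurons and 3 of 10 for neutrophils. The melanocyte markers that missed 1 TPM were Mitf, Kit, Gpr143, Trpm1, Oca2 and Mc1r. The highest red cell marker, Hba-a1 (16714 ± 7461 TPM), and the highest fibroblast marker, Coch (8005 ± 2950 TPM), lay above Lyz2 in mean TPM. No marker was at 0 in all 3 libraries. Of all genes tested 37.6% stood above 1 TPM, beside 50% of the neuronal and 30% of the neutrophil markers. Markers of several other cell types thus passed more often than genes in general. For any gene below, fewer cells of a type cannot be told apart from less RNA per cell.

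The metallothionein pair is shown first at the level of sequence, because the cysteine residues that hold the metal can be read directly from the coding strand. In GENCODE M21, an annotation on the older build GRCm38, the principal transcripts of Mt1 and Mt2 each code for 61 residues in 186 bases with the stop codon. Of the 61 codons, 20 encode cysteine in each gene (32.8%), and all 20 stand at the same positions in both. The coding strands follow, 5′ to 3′, with the cysteine codons in capitals.
Mt1: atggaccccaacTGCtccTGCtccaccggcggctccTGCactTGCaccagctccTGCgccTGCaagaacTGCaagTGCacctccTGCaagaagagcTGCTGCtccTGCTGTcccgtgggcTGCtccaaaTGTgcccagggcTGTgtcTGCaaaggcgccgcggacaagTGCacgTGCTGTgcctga
Mt2: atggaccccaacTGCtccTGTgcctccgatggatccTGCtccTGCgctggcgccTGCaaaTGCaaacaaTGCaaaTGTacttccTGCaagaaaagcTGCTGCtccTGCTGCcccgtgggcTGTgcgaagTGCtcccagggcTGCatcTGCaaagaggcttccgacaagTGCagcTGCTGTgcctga
The genes share 148 of 186 bases (79.6%), which is below the identity of 85% used below to list near copies. By the same count Txn1 had 6 cysteine codons among 105 (5.71%), Prdx5 6 among 210 (2.86%) and Prdx1 4 among 199 (2.01%), and the remaining members had between 0.949% and 1.95%.

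The windows of 250 bases upstream of the transcription start were then searched on both strands for the letters of a metal response element (TGCACNC or TGCGCNC) and of an antioxidant response element (TGACNNNGC). Sequences are from RefSeq on GRCm38.p6, in which all 10 members matched. They are shown because these are the elements through which MTF1 and NRF2 are known to act on such genes. The Mt1 window is chr8:94178839-94179088 and the Mt2 window chr8:94172368-94172617, both on the plus strand, 5′ to 3′, with matches to either motif in capitals.
Mt1: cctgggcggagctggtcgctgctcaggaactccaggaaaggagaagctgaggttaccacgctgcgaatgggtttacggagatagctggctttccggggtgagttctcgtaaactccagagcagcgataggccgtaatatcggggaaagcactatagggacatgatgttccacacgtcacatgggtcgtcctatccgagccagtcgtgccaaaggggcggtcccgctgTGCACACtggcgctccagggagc
Mt2: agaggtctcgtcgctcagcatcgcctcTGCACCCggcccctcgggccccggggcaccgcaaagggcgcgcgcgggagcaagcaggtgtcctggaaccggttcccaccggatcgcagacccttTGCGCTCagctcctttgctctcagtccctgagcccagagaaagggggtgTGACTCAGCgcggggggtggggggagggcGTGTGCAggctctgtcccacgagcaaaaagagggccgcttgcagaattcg
The Mt1 window held 1 match to the metal letters, which began 23 bases before the start used. The Mt2 window held 3 such matches, which began 223, 128 and 50 bases before its start. The nearest of the 3 was on the opposite strand, and Mt2 also held 1 match to the antioxidant letters at 79 bases. Each gene had 1 window at 1 annotated start, and sequence at or beyond that start was not searched. These counts thus do not show that the Mt1 promoter has fewer metal response elements than that of Mt2. No matches overlapped. Among 32851 RefSeq windows of the same length, 21.4% held at least 1 metal match and 1.26% held 3 or more. The only members with metal matches in their window were Mt1 and Mt2 (2 of 10), and 4 of 10 held the antioxidant letters against 10.2% of all windows. The other 3 were Nfe2l2 itself, Sod1 and Prdx1, and the stretches around all 4 matches follow on the gene's strand, with the match in capitals.
Nfe2l2, chr2:75704875-75704913, minus strand: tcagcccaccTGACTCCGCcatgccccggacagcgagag
Sod1, chr16:90220686-90220734, plus strand: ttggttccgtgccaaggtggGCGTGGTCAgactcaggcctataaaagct
Prdx1, chr4:116685446-116685494, plus strand: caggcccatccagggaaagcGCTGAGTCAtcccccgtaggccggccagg
Mt2, chr8:94172519-94172567, plus strand: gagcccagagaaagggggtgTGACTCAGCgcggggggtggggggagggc
In Sod1 and Prdx1 the motif reads on the opposite strand, so its reverse complement is capitalised. A match to letters is a description of the window and not a measured binding site.

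All 10 genes were well expressed, and the cytosolic peroxiredoxin Prdx1 had the highest mean. In limma's moderated one-sided test on log2(TPM + 1), adjusted by Benjamini-Hochberg over all 27265 genes that had a count, all 10 stood above 1 TPM (adjusted p from 1.3e-05 to 0.000121), where 37.6% of all genes tested did. Prdx1, Txn1, Prdx5 and Prdx2 also stood above 100 TPM, 4 of 10 where 2.09% of all genes tested did. The members' median level was 7.62 on the log2(TPM + 1) scale, against 1.49 over all genes tested and 3.95 over the genes called above 1 TPM. Together they made up 0.470%, 0.557% and 0.425% of the counts in replicates 1, 2 and 3. With any 1 library left out, no member and no other gene passed 100 TPM, while 5 members had an unadjusted p under 0.05 in limma. Fewer libraries enter such a fit.

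**Figure D1:**
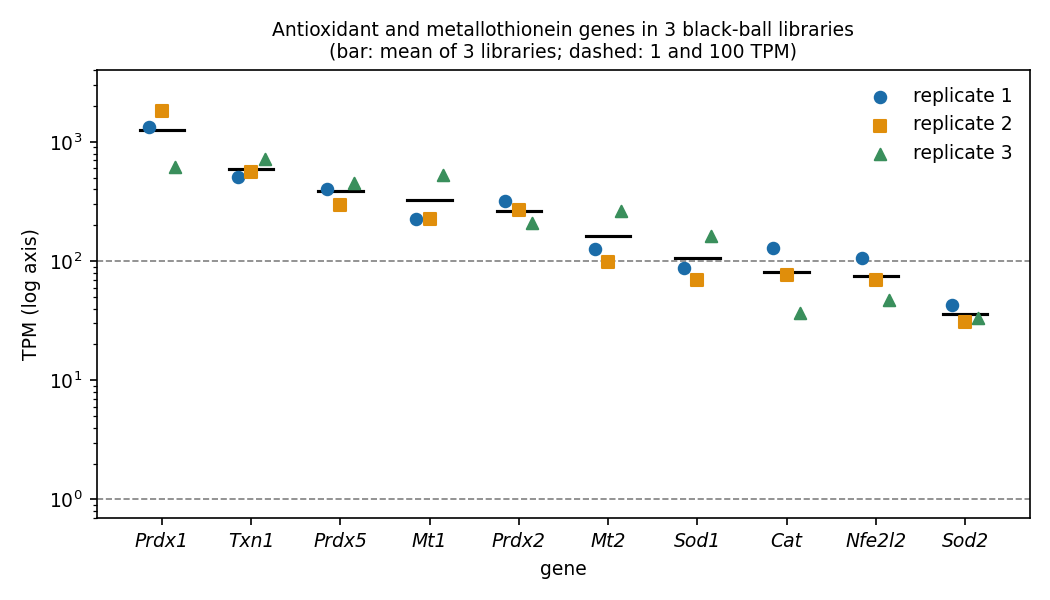
TPM of each of the 10 genes in the 3 libraries (points, log axis), with a short bar at the mean and dashed lines at 1 and 100 TPM. Prdx1 lies highest at a mean of 1261 TPM and Sod2 lowest at 35.6 TPM, and every point of every gene is above 1 TPM.

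Nfe2l2, the gene of the regulator NRF2 (chromosome 2, 75505857 to 75534985, GRCm39, as for all gene positions from the table), had 106, 69.4 and 47.3 TPM in replicates 1, 2 and 3. It was highest in replicate 1 and lowest in replicate 3, with a mean of 74.3 ± 29.7 TPM that lay above 1 TPM (limma, adjusted p = 3.92e-05) and did not pass 100 TPM. Sod1, the copper-zinc dismutase of the cytosol (chromosome 16, 90017642 to 90023217), had 87.7, 69.6 and 162 TPM, a mean of 106 ± 49.0. Replicate 3 alone held Sod1 above 100 TPM. Sod2, the manganese dismutase of mitochondria (chromosome 17, 13225733 to 13258950), had 42.5, 30.8 and 33.6 TPM, a mean of 35.6 ± 6.13. It was the lowest member in every library by TPM and one of the steadiest. By CPM, which uses no gene length, its mean of 200 lay above those of Nfe2l2 (126), Cat (109) and Mt2 (60.3). Cat, the peroxisomal catalase (chromosome 2, 103284194 to 103315505), had 130.0, 77.1 and 36.5 TPM, a mean of 81.2 ± 46.9. Its highest library was 3.57 times its lowest, the widest such ratio among the 10.

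The peroxiredoxins reduce peroxides through a reactive cysteine. Prdx1 (chromosome 4, 116542741 to 116558019), the abundant cytosolic form, had 1346, 1817 and 621 TPM, a mean of 1261 ± 603, above 100 TPM in limma's test (adjusted p = 0.00962). Replicate 2 was the highest and replicate 3 the lowest. Prdx2 (chromosome 8, 85696216 to 85701463), a cytosolic form best known as an abundant protein of red cells, had 319, 269 and 208 TPM, a mean of 265 ± 55.9 (limma, above 100 TPM, adjusted p = 0.0320). Prdx5 (chromosome 19, 6884065 to 6887474), which is found in mitochondria, peroxisomes and cytosol, had 401, 297 and 454 TPM, a mean of 384 ± 79.8 (limma, adjusted p = 0.0127). All 3 peroxiredoxins stood above 200 TPM in every library, but they did not share the library in which they were highest. Txn1, the cytosolic thioredoxin that returns most peroxiredoxins to their reduced state (chromosome 4, 57943373 to 57956411), had 506, 559 and 721 TPM, a mean of 595 ± 112 (limma, above 100 TPM, adjusted p = 0.00627).

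Both metallothioneins were highest in replicate 3. Mt1 (chromosome 8, 94905710 to 94906955) had 225, 226 and 529 TPM, a mean of 327 ± 175, and did not pass 100 TPM (limma, adjusted p = 0.0828). Mt2 (chromosome 8, 94899292 to 94900196), its neighbour on the chromosome, had 125, 97.7 and 262 TPM, a mean of 162 ± 88.2. Replicates 1 and 2 lay close together for both genes and replicate 3 stood apart from them. Mt3, the form known from the nervous system, had 146, 88.8 and 343 TPM and shared that order of libraries with Mt2. Mt4, known from stratified epithelium, had no count in any library, which allows up to 0.163, 0.199 and 0.213 CPM.

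The gene length behind these values bears on any comparison between genes. The deposited FPKM values equal the count over the library total and over a fixed length per gene. For many genes that length was close to the sum of all annotated transcripts of the gene. Over genes matched to GENCODE M21, the log2 ratio of the implied length to the summed transcript length had a median of -0.04. Of these genes 45.1% lay within 2% of the sum, a share that includes genes with 1 transcript. Among genes with more than 1, 98.1% had an implied length above that of all their exons merged. For Nfe2l2 (3922 bases) and Mt1 (2267 bases) the implied length equalled the sum to the base. Txn1 (1051 bases) matched too, but it has 1 transcript, so its match cannot tell a sum from a single transcript. In the other members the implied length was below the sum, most so in Prdx2 (5276 against 9108 bases). The implied length of Mt1 was longer than the gene itself, which spans 1246 bases, and that of Prdx5 was 4002 bases in a gene of 3410. At equal counts, a gene with many annotated transcripts thus tends to have a lower TPM than a gene with 1, such as Txn1. The levels were recomputed with the length of the principal transcript, a choice made after the data were seen. This was the longest transcript annotated as principal, or the longest of all where a gene had none so annotated.

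With the principal transcript length Sod1, whose length went from 4313 to 641 bases, had 432 ± 201 TPM. Mt1, from 2267 to 549 bases, had 815 ± 441 TPM and moved from the fourth place to the second. Prdx5 had 733 ± 148 TPM and Prdx2 had 522 ± 103 TPM, both higher than before, while Txn1 was lower at 359 ± 70.6 TPM. Those 5 genes moved by over 1.5 times and the other 5 by less, with Prdx1 at 1356 ± 659, Mt2 at 159 ± 87.4, Nfe2l2 at 70.7 ± 27.0, Cat at 58.4 ± 32.7 and Sod2 at 47.1 ± 7.10 TPM. On this scale 6 of 10 members passed 100 TPM, Mt1 (limma, adjusted p = 0.00975) and Sod1 (limma, adjusted p = 0.0217) in addition, where 2.58% of 25973 matched genes did. All 10 again passed 1 TPM, where 40.2% did.

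**Figure D2:**
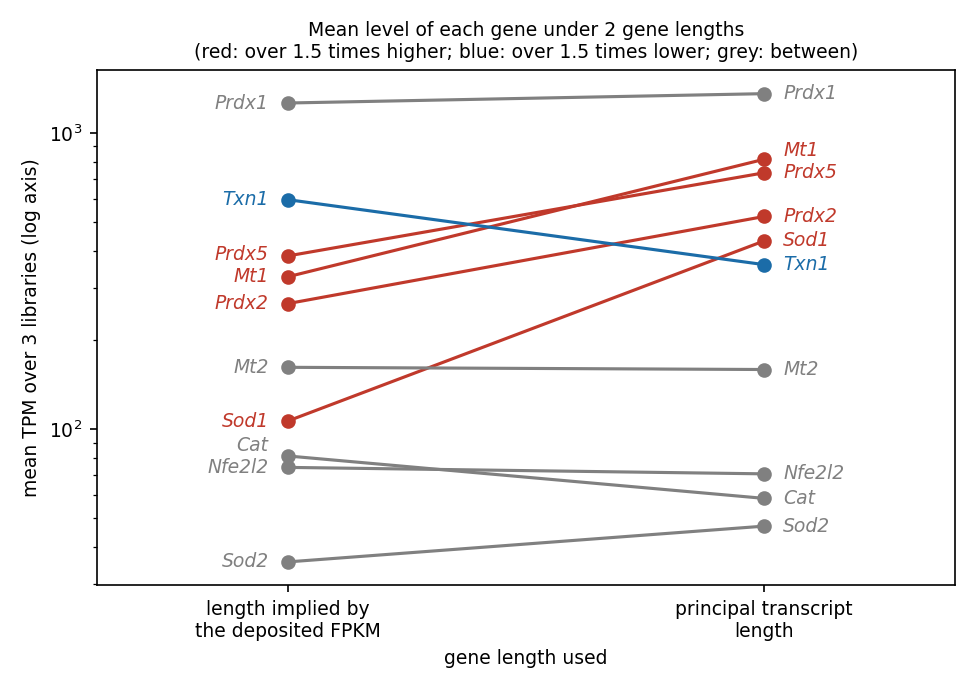
Mean TPM of each gene over 3 libraries (log axis) with the length implied by the deposited FPKM (left) and with the principal transcript length (right). Sod1, Mt1, Prdx5 and Prdx2 rise by over 1.5 times (red), Txn1 drops by over 1.5 times (blue), and the other 5 genes move less (grey).

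In the order of mean TPM, Prdx1 was followed by Txn1, Prdx5, Mt1, Prdx2, Mt2, Sod1, Cat, Nfe2l2 and Sod2. Only 3 neighbours in that order differed by more than the SD of their difference over the libraries and kept their order in all 3 libraries. Txn1 lay above Prdx5 by 0.64 ± 0.29 on the log2 scale, Mt2 above Sod1 by 0.56 ± 0.11, and Nfe2l2 above Sod2 by 0.98 ± 0.43. The other neighbours, Prdx1 and Txn1 included (0.96 ± 1.03), did not differ beyond their spread. The first of these separations did not hold with the principal transcript length, where Prdx5 was above Txn1, and neither did the second, where Sod1 was above Mt2. The third turned round by CPM, without gene length, where Sod2 lay above Nfe2l2 by 0.71 ± 0.44 in all 3 libraries.

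In all, 10 pairs of genes with related tasks were compared within each library, as differences of log2(TPM + 1). A two-sided exact permutation test that flips the signs of the 3 library differences cannot give a p below 0.25, so no pair could reach 0.05. Sod1 exceeded Sod2 by 1.03, 1.15 and 2.24 in replicates 1, 2 and 3, a mean of 1.47 ± 0.67, or 2.77-fold. The cytosolic dismutase was thus ahead in every library by TPM and most so in replicate 3. By CPM the mean difference turned to -0.080 ± 0.67, with Sod1 below Sod2 in replicates 1 and 2. Mt1 exceeded Mt2 by 0.84, 1.20 and 1.01, a mean of 1.02 ± 0.18 or 2.02-fold, and this was the pair with the smallest spread. With the principal transcript length the ratios were 8.49-fold for the dismutases and 5.12-fold for the metallothioneins, in the same direction. Sod1 and Ccs, the copper chaperone that loads SOD1, did not separate: the difference was -0.49, -0.31 and 0.55, a mean of -0.08 ± 0.56 (exact p = 1), and its sign turned to 0.95 ± 0.56 with the principal transcript length.

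Within the peroxide-removing pairs, Prdx1 exceeded Prdx2 by 2.13 ± 0.59 (4.39-fold), Prdx5 by 1.60 ± 1.09 (3.03-fold) and Prdx6, the peroxiredoxin that uses glutathione, by 2.96 ± 0.80 (7.80-fold). Prdx1 was higher in all 3 libraries in each of these pairs. With the principal transcript length the folds were lower, at 2.39 over Prdx2, 1.71 over Prdx5 (higher in 2 of 3 libraries) and 3.65 over Prdx6. Txn1 exceeded Txn2, the mitochondrial thioredoxin, by 2.73, 3.06 and 3.50, a mean of 3.10 ± 0.38 (8.56-fold, and 2.91-fold with the principal transcript length). Nfe2l2 exceeded Keap1, the gene of its inhibitor, by 3.75 and 3.85 in replicates 1 and 2 but by 1.75 in replicate 3, a mean of 3.12 ± 1.18 (8.68-fold, and 5.63-fold with the principal transcript length). Replicate 3 combined the lowest Nfe2l2 level with the highest Keap1 level (6.95, 3.90 and 13.3 TPM in replicates 1, 2 and 3). Cat and Gpx1, the main cytosolic glutathione peroxidase, changed order between libraries, with differences of 1.12, 0.41 and -0.99 (mean 0.18 ± 1.07, exact p = 0.75). With the principal transcript length Gpx1 was above Cat in all 3 libraries, and the difference was -1.21 ± 1.07. Mt1 exceeded Mt3 by 0.86 ± 0.41 (1.82-fold, and 3.09-fold with the principal transcript length). The 8 pairs with 1 order in all libraries had the smallest p the exact test allows, 0.25, and an adjusted p of 0.3125 over the 10 pairs.

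Across the libraries 5 members were highest and 4 lowest in replicate 3 by CPM. That library was thus at an end of the range for 9 of 10 members, but it was so for 77.8% of all genes called above 1 TPM (42.5% highest and 35.3% lowest), a share close to that of the members. On the CPM scale, which uses no gene length, Mt1 had 205, 229 and 563 CPM and Mt2 had 41.9, 36.5 and 103 CPM. Replicate 3 thus held 2.59 times the mean of the other 2 libraries for Mt1 and 2.62 times for Mt2. Sod1 followed with 152, 134 and 328 CPM, 2.29 times the mean of the others. Txn1 (1.49 times) and Prdx5 (1.45 times) were also highest there, by less. Cat went the other way, with 164, 108 and 53.7 CPM, so that the mean of replicates 1 and 2 was 2.53 times replicate 3. Prdx1 did so by 2.32 times, Nfe2l2 by 1.66 times and Prdx2 by 1.27 times. Sod2 had 220.2, 178 and 203 CPM and showed no such shift.

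**Figure D3:**
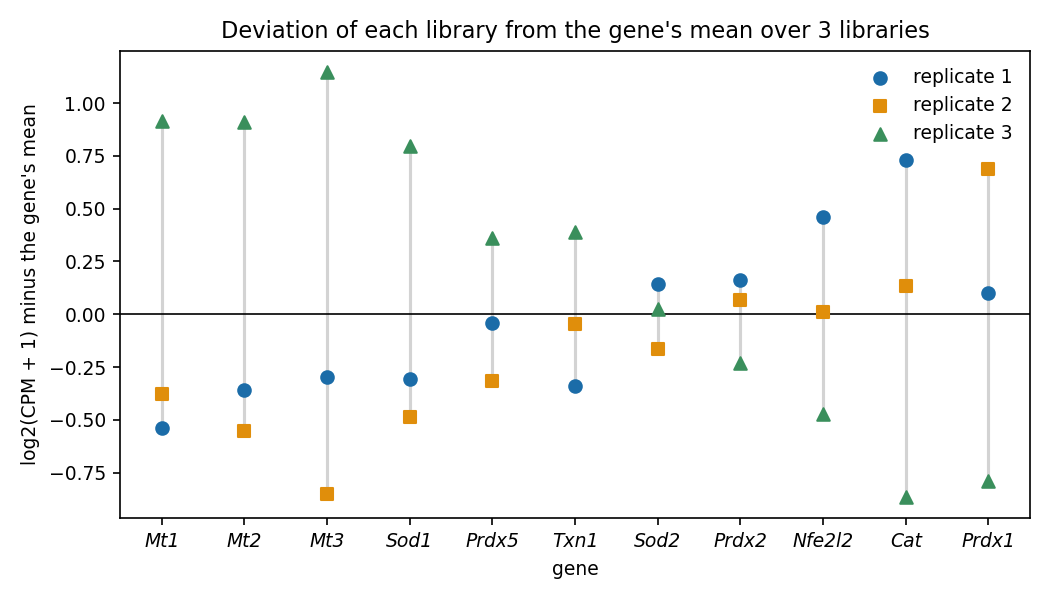
Deviation of log2(CPM + 1) from the gene's own mean over the 3 libraries, for the 10 genes and Mt3 in each library (grey lines join the libraries of a gene). Mt1, Mt2, Mt3, Sod1, Txn1 and Prdx5 lie above their mean in replicate 3, and Cat, Prdx1, Nfe2l2 and Prdx2 below it.

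The same library was highest for 9 of 10 members under CPM, TMM and DESeq2 scaling, the exception being Prdx2, and the same was lowest for 9 of 10, the exception being Sod2. Those scalings moved the median of all genes by 0.11 and 0.12 on the log2 scale in replicate 2 and by -0.09 and -0.11 in replicate 3. Markers of other cells also differed between the libraries. Their sums are given in TPM, and the library in which a marker was highest or lowest is by CPM. Of all genes called above 1 TPM, 32.1%, 25.4% and 42.5% were highest in replicates 1, 2 and 3. The 10 neuronal markers summed to 84.3, 86.5 and 349 TPM in replicates 1, 2 and 3, with 8 of 10 highest in replicate 3. The 7 red cell markers summed to 21791, 29998 and 51507 TPM, and the 12 supporting epithelium markers to 2713, 1851 and 1896 TPM, with 10 of 12 highest in replicate 1. The 10 neutrophil markers summed to 20.3, 417 and 148 TPM, with 8 of 10 highest in replicate 2. The 10 fibroblast markers summed to 13130, 13351 and 10032 TPM, although 6 of 10 were highest in replicate 3. The 18 macrophage markers summed to 9010, 5794 and 6583 TPM, of which Lyz2 alone held 6490, 3513 and 3845 TPM. By count of genes on the CPM scale they went the other way, with 11 of 18 lowest in replicate 1 and 11 of 18 highest in replicate 3. Of all genes called above 1 TPM, 25.8% were lowest in replicate 1 and 42.5% highest in replicate 3. The 15 melanocyte markers summed to 582, 707 and 715 TPM. The part of these cell types in the members' pattern was not tested.

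The members differed in their spread between libraries. The SD of log2(TPM + 1) was 0.91 for Cat, where genes within 0.5 of its level had a median of 0.44 and 92.8% of them varied less. Prdx1 had an SD of 0.80 against 0.37 for genes of like level, with 94.0% below it. Mt2 at 0.74 (86.1% below) and Mt1 at 0.71 (88.1% below) varied nearly as much. Sod1 at 0.62 and Nfe2l2 at 0.58 lay in the upper range of genes of like level, with 76.2% and 68.5% below them. Prdx5 (0.31), Prdx2 (0.31), Txn1 (0.26) and Sod2 (0.23) varied less than the median gene of their level. The members' median SD was 0.60, against 0.46 over all genes tested. This order rested on replicate 3. Without it the SD was 0.003 for Mt1, 0.10 for Txn1, 0.18 for Prdx2, 0.23 for Sod1, 0.25 for Mt2, 0.31 for Prdx5, 0.31 for Prdx1, 0.32 for Sod2, 0.43 for Nfe2l2 and 0.53 for Cat. Cat still varied most, but both metallothioneins and Sod1 then varied less than Sod2.

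**Figure D4:**
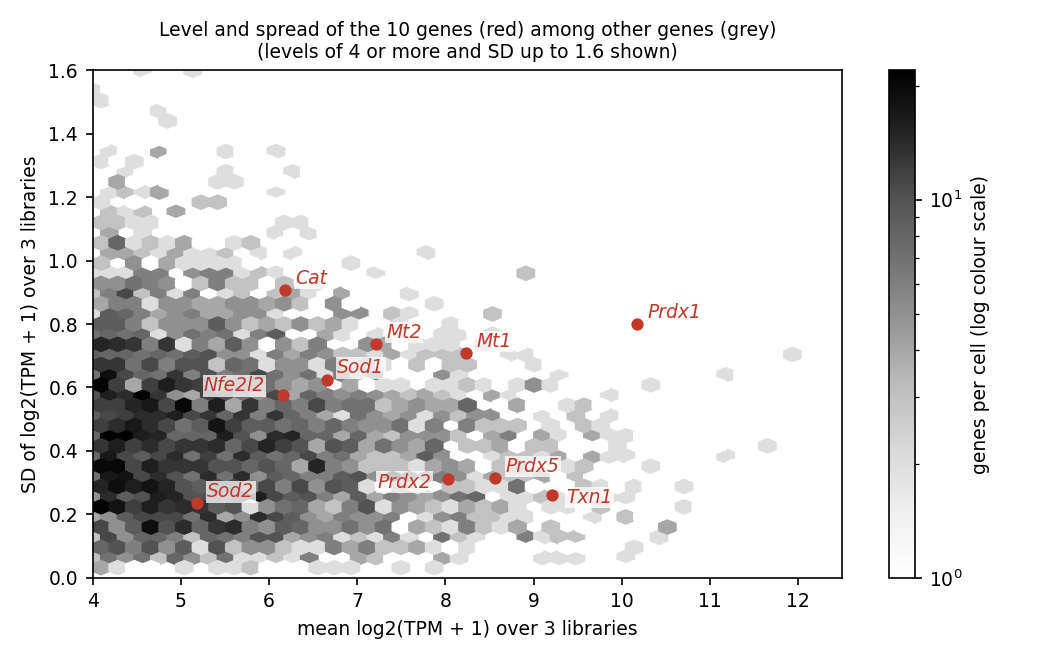
SD over 3 libraries against mean level, both on the log2(TPM + 1) scale, for the 10 genes (red) and for other genes (grey, darker where more genes fall), within the ranges of the axes. Cat, Prdx1, Mt2 and Mt1 lie high for their level and Txn1 and Sod2 low, an order that rests on replicate 3.

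The other genes of these pathways were read from 6 lists of 87 genes, which gave 88 rows because Nnt has 2 gene records. Of these rows 68 stood above 1 TPM in limma's test, beside 37.6% of all genes tested, and 8 above 100 TPM, beside 2.09%. Among the 12 genes of NRF2 control, 6 stood above 1 TPM and none above 100 TPM in limma's test, with 1 at an unadjusted p under 0.05. They were led by Rbx1, the RING subunit of the ligase that marks NRF2 for destruction, at 156 ± 20.7 TPM. Sqstm1, the autophagy receptor that binds KEAP1, had 73.0 ± 43.5 TPM, Cul3, the ligase scaffold, 33.0 ± 17.6 TPM, and Nfe2l1, a relative of Nfe2l2, 8.38 ± 5.23 TPM. Keap1 followed at 8.06 ± 4.82 TPM, above 1 TPM. Rbx1 thus lay well above Cul3 and Keap1 in mean TPM. In replicate 3 Cul3 (14.5 TPM) and Keap1 (13.3 TPM) lay close together. With the principal transcript length the means were 350 TPM for Rbx1, 26.5 TPM for Cul3 and 12.4 TPM for Keap1.

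Of 20 NRF2 target enzymes, 17 stood above 1 TPM and 4 above 100 TPM. The 4 were the glutathione transferases Gstm1 (869 ± 258 TPM), Gsta4 (862 ± 183 TPM) and Mgst3 (412 ± 116 TPM), and the pentose phosphate enzyme Taldo1 (314 ± 48.5 TPM). Osgin1, Gsta3 and Abcc1 did not pass 1 TPM. By CPM, replicate 3 was the lowest library for 11 of the 20, beside 35.3% of all genes called above 1 TPM, and the highest for 8 of the 20, beside 42.5%. Nfe2l2 was also lowest there, and whether the list followed it was not tested. Of 7 partners of the dismutases, 6 stood above 1 TPM and 1 above 100 TPM. The latter was Atox1, a copper chaperone, at 741 ± 157 TPM. Sod3, the secreted dismutase, had 509, 168 and 136 TPM (mean 271 ± 207), so that replicate 1 stood far above the others, while Ccs had 107 ± 18.8 TPM and Cox17, the chaperone for cytochrome oxidase, 45.3 ± 22.0 TPM.

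The remaining peroxiredoxin and thioredoxin genes were nearly all present, 20 of 21 above 1 TPM, with none above 100 TPM in limma's test and 3 at an unadjusted p under 0.05. Prdx3, the mitochondrial peroxiredoxin, was highest at 543, 549 and 198 TPM (mean 430 ± 201), low in replicate 3 as Prdx1 was. Msrb2, a methionine sulfoxide reductase, had 175 ± 37.0 TPM, Prdx6 had 157 ± 73.8 TPM, Txnip, which binds and inhibits thioredoxin, had 150 ± 49.6 TPM, and Txn2 had 68.0 ± 6.53 TPM. The exception was Txnrd1, the reductase that supplies thioredoxin with electrons, at 15.8, 0.924 and 12.5 TPM (limma, adjusted p = 0.0505). Its level in replicate 2 alone was under 1 TPM. With the principal transcript length Txnrd1 passed 1 TPM (limma, adjusted p = 0.0188), while the related reductase Txnrd3 (0.114) and Sesn2, a stress-induced sestrin (0.155), did not. By CPM, 12 of the 21 were lowest and 5 highest in replicate 3, beside 35.3% and 42.5% of all genes called above 1 TPM. None was lowest and 10 were highest in replicate 1, beside 25.8% and 32.1%.

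In the glutathione system 13 of 16 rows stood above 1 TPM and 3 above 100 TPM. Gpx3, the secreted glutathione peroxidase, had 2946, 1920 and 2188 TPM (mean 2351 ± 532) and exceeded every one of the 10 members in mean TPM. Gpx2, an epithelial form, had 701 ± 362 TPM and Gpx4, which reduces lipid peroxides in membranes, 445 ± 47.7 TPM. Gpx8, a form of the endoplasmic reticulum, had 263 ± 102 TPM without passing 100 TPM, and Gpx1 had 63.5 ± 8.65 TPM. The rows that did not pass 1 TPM in the test were Ggt1 and both records of Nnt. The counts of Nnt were split between its records by library, so neither row alone gives the level of that gene.

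Of 12 metallothionein and zinc genes, 6 stood above 1 TPM and none above 100 TPM in limma's test, nor at an unadjusted p under 0.05. Mt3 was far ahead at 192 ± 133 TPM. The zinc transporters came next, with Slc39a1 at 12.5 ± 6.74 TPM, Slc30a4 at 9.52 ± 4.04 TPM and Slc39a6 at 8.02 ± 2.35 TPM. Mtf1, the zinc-sensing factor, had 2.32, 2.23 and 1.35 TPM and did not pass 1 TPM (limma, adjusted p = 0.246).

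**Figure D5:**
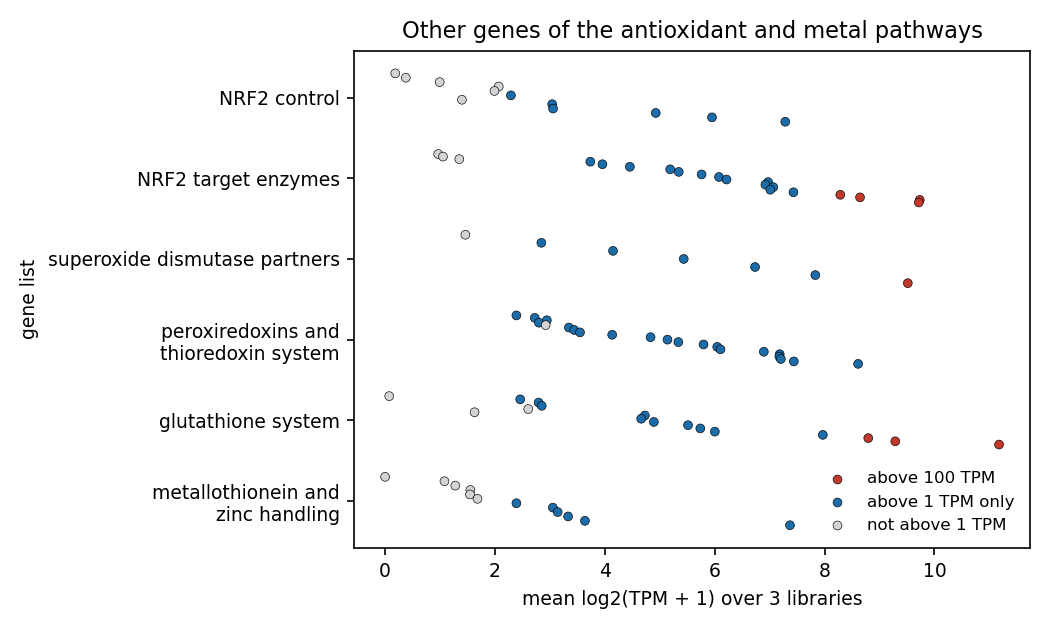
Mean log2(TPM + 1) over 3 libraries of each gene in the 6 pathway lists (1 point a gene), in red where it stood above 100 TPM, in blue where above 1 TPM only and in grey where neither. The 8 red points lie in the lists of NRF2 target enzymes (4), the glutathione system (3) and the dismutase partners (1).

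Reads of 4 members could be shared with processed pseudogenes that copy their coding sequence. The sources used here do not say how reads with several matches were assigned, so the levels of these 4 are uncertain. At 85% identity over 50% of the coding sequence, Prdx1 had 4 such copies in the table, Prdx2 and Sod1 had 2 each, Txn1 had 1 and the other 6 members had none. Summed over copies, the counts came to 9.18%, 9.64% and 9.54% of those of Prdx1 in replicates 1, 2 and 3, to 10.3%, 12.4% and 11.2% of those of Prdx2, and to 12.2%, 11.5% and 14.6% of those of Sod1. For Txn1 the share stayed between 0.456% and 0.578%. The share of the main Prdx1 copy, Gm21399, varied 1.06-fold between libraries, while Prdx1 itself varied 2.79-fold by CPM. For the Sod1 copy Gm8566 the share varied 1.26-fold, beside 2.44-fold for Sod1. For the Prdx2 copy Prdx2-ps1 it varied 1.21-fold, beside only 1.32-fold for Prdx2. The Prdx1 copy Gm21399 (98.3% identical) had 3392, 4399 and 1428 counts, in the order of the libraries seen for Prdx1, and the Sod1 copy Gm8566 (97.8% identical) had 338, 232 and 669 counts, in that seen for Sod1.

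The likeness is shown for Prdx2 and Prdx2-ps1, which are 96.3% identical over 597 bases. The first 90 coding bases follow, 5′ to 3′ from the start codon, with the 6 differing bases in capitals.
Prdx2: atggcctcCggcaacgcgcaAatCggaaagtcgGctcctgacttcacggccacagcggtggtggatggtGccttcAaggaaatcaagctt
Prdx2-ps1: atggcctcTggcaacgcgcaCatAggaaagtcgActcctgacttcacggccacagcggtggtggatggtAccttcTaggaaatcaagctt
A read that falls wholly between 2 of these differences matches both genes. Prdx2-ps1 had 1283, 1187 and 811 counts. Another 4 members, in part the same ones, overlap other genes of the table that had counts: Sod1 shares 650 bases with Scaf4, Prdx2 181 with Rnaseh2a and 351 with Junb, Prdx5 409 with Trmt112, and Mt2 749 with the noncoding gene Gm45774. Their counts were lower than the member's in every library, at most 213 for Scaf4, 557 for Rnaseh2a, 386 for Junb, 652 for Trmt112 and 69 for Gm45774. Whether strand was used in counting is not given.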

How the data were processed

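Polyadenylated RNA of 1 group was measured in 3 libraries. The authors deposited a table of counts per gene and FPKM, per the file headers. HISAT2, StringTie, edgeR and the build GRCm39 are named in the submitters' processing notes, with neither versions nor roles. FPKM equals the count over the library total and a fixed length per gene, which was compared with transcript lengths of GENCODE M21 (lengths only, since the builds differ). FPKM was rescaled to TPM and analysed as log2(TPM + 1). limma 3.58.1 (R 4.3.3, intercept only, mean-variance trend) tested each mean one-sided against 1 and 100 TPM, with p adjusted by Benjamini-Hochberg over the 27265 genes counted in 1 library or more, at a threshold of 0.05. CPM is the count over the library total. TMM factors came from edgeR 4.0.16 and size factors from DESeq2 1.42.0. Near copies were found by BLAST 2.17.0. The test was checked on simulated data. The members, the gene lists and the markers were chosen with earlier results of these data known. Named are all 10 members, the 4 highest genes of each list, pair genes, genes at 0 in all libraries and the 2 highest markers of macrophages and melanocytes. Other named genes (list members and markers that did not pass 1 TPM, Hba-a1, Coch, Txnrd3, Sesn2, Prdx2-ps1 and other copies, Mtf1 and Mafg) were chosen after their values were seen. Alternatives were another pseudocount, filter, scaling or gene length, no trend, and leaving out each library.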

Additional observations from a re-analysis of the deposited data

How the results depend on the processing

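No paired analysis was possible because the series has 1 group. All 10 members passed 1 TPM under each of the 12 alternatives. The CPM, TMM and DESeq2 settings use no gene length, so in these the lines stood at 1 and 100 CPM instead of TPM. The number above 100 TPM (4) ranged from 0 to 0 with 1 library left out, where 5 members had an unadjusted p under 0.05 in limma and no gene in the table passed; fewer samples enter such a fit. It was 3 without the trend, where Prdx2 was lost (adjusted p 0.0798 in limma), and 6 under TMM. For the pathway lists that number (8) was 14 under CPM, TMM and DESeq2 scaling without gene length, and 0 with 1 library left out, where 14 to 19 had an unadjusted p under 0.05. Mt1 passed 100 TPM in limma with only genes counted in all libraries (adjusted p = 0.0327), by principal length (0.00975) and by union exon length (0.0249). It passed 100 CPM under TMM (limma, adjusted p = 0.0499). Sides of the 100 line, as log2 differences, changed under CPM, TMM and DESeq2 for Nfe2l2 (0.27, 0.28 and 0.28), Sod1 (0.91 in each), Sod2 (0.99 in each, past the threshold, with limma's adjusted p from 0.0438 to 0.0453) and Mt2 (-0.88 in each). Sod1 also changed side by principal length (2.00). With 1 library left out Sod1 ranged from -0.35 to 0.25, positive without replicate 1 or 2, and Cat from -0.90 to 0.0024, positive without replicate 3. Of the pairs, Sod1 minus Sod2 was -0.080 under CPM. Sod1 minus Ccs was 0.22 under CPM, 0.95 by principal length and from -0.40 to 0.12 with 1 library left out (positive without replicate 1 or 2). Cat minus Gpx1 was -1.21 by principal length, -0.79 by union exon length and from -0.29 (without replicate 1) to 0.77 with 1 library left out. The other 72 of 80 pair values kept their sign. The principal and union lengths were added after the data were seen. The CPM settings differ from TPM by leaving out gene length, and the cause of the other changes was not tested. Every member had at least 550 counts, but these are PCR reads of a few cells, so neither depth nor the number of libraries was shown to be the lesser limit.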

Other observations

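For Nnt and Mafg, 1 gene record held counts in replicate 3 only. Nnt, the mitochondrial enzyme that makes NADPH for glutathione and thioredoxin reduction, has 2 records over nearly the same span of chromosome 13. One record, from 119472064 to 119545488, had 0, 0 and 631 counts in replicates 1, 2 and 3, and the other, from 119471984 to 119545533, had 720, 538 and 18 counts. Summed over both records Nnt had 720, 538 and 649 counts, so the gene was counted in all 3 libraries and the record that received the counts differed. Mafg, a small MAF protein that pairs with NRF2 on DNA, had 0, 0 and 896 counts in its only record. Both were chosen after their values were seen.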
